A study of Sus scrofa with 22 samples.

Results

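The baseline cerebellar transcriptome of the piglet (Sus scrofa) was described from 11 sham-operated animals. These were the libraries labelled SHAM, 11 of the 22 libraries in the series. In that series piglets were operated on at day 8 of life, by sham surgery or by bile duct ligation, and followed for 3 weeks. The ligated animals were not used here, and no value below is a contrast with them. The group held 5 females and 6 males, with 1 library per animal, made from cerebellar total RNA. The animals carried no labelled genetic modification. The sources used here give no breed, litter, age at sampling or description of the sham operation. All of the animals had surgery, so the values are those of an operated and not of an unoperated piglet. Body weights ran from 1660 to 2560, in a unit that the labels do not give. Animals are numbered 1 to 11 in the order of deposition, which only names them. The labels give 1 weight and 1 sex per sample, and say no more about how the samples relate to each other, so spreads and p-values refer to these samples.

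The cerebellum tunes movement and balance through a layered cortex that repeats across its folds. Granule neurons, the most numerous neurons of the brain, receive mossy fibre input and excite Purkinje cells, whose inhibitory axons are the sole output of the cortex. Bergmann glia support the Purkinje cells, oligodendrocytes wrap the axons of the white matter in myelin, and in newborn mammals granule cell precursors still divide in the outermost layer. Each of these cells carries genes that mark it, and the text follows them by role. A level is given as CPM, the counts of a gene after each library was scaled to 1000000 gene counts. CPM is not corrected for transcript length, so the order of genes by CPM is an order of reads and not of molecules. Errors are SDs over the 11 animals, and CV is the SD as a percentage of the mean. The CV of a list is that of its summed level, and its single members can vary more. In bulk tissue, fewer cells of a type and less RNA per cell cannot be told apart.

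Each library held 14811464 to 20046909 gene counts, with between 19538 and 20334 genes detected by at least 1 count. Between 29.9% and 33.5% of the reads tallied in each table had been assigned to no gene. The libraries resembled each other closely, with a Spearman correlation across genes of 0.978 to 0.993 over the 55 pairs (genes are not independent replicates). Counts of every pair differed by more than sampling noise, the chi-square per degree of freedom lying between 7.23 and 39.3, so each library was counted as its own sample. Animal 1 had the shallowest library and the largest share of reads outside annotated genes (14.5%).

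The libraries carried the markers of cerebellum. GABRA6, a GABA-A receptor subunit of granule neurons, was at 382 ± 32.9 CPM and ranged from 327 to 429 CPM. CBLN1, the granule cell protein that binds parallel fibres to Purkinje cells, reached 1473 ± 125 CPM. Both were present at a similar level in all 11 animals, with CVs of 8.60% and 8.46%. The transcription factors of the granule lineage, ZIC1 and NEUROD1, stood at 672 ± 68.2 and 786 ± 79.2 CPM, and EN2, which patterns the cerebellar primordium, at 167 ± 16.02 CPM. Purkinje cell markers were also present, with PCP2 at 358 ± 45.5 CPM and CALB1, which encodes the calcium buffer calbindin, at 389 ± 53.7 CPM. Forebrain markers were low. Over 11 libraries the forebrain regulator EMX1 had 5 counts and DLX5 had 0. The 15 forebrain markers found summed to 41.6 ± 4.69 CPM, most of it from NEUROD6 (13.6 ± 4.75 CPM) and PPP1R1B (12.9 ± 2.59 CPM). The 15 markers of brainstem and of the deep nuclei, which belong to the cerebellum, summed to 64.8 ± 16.8 CPM, carried by SPP1 (45.3 ± 15.5 CPM) and the vesicular glutamate transporter SLC17A6 (16.5 ± 5.62 CPM). A count of 0 in a library allows a level of up to 0.15 to 0.203 CPM, for counting error only.

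Reads were spread over many genes, with a few at the head. A single gene, COX1, held 1.37% of the gene counts, the 10 genes with the highest mean CPM held 6.91% ± 0.757, and the top 100 held 17.7% ± 0.859. An average of 1083 ± 29.7 genes made up 50% of the counts and 6143 ± 40.8 made up 90%. In all, 14172 genes had a mean of at least 1 CPM, 10034 at least 10, 2418 at least 100 and 59 at least 1000. Identifiers with no symbol held 9.39% of the counts and are described here by number alone. The head of the list was stable, since 64 genes were in the top 100 of every library and 145 in that of at least 1. The top 10 was shared even more closely, with 9 genes in the top 10 of all 11 libraries.

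The genes with the most reads were encoded by mitochondrial DNA or belonged to myelin and astrocytes. The 10 named genes with the highest mean CPM included COX1, COX3, ATP6, MBP, COX2, CYTB, ND4, APOE and GFAP. Of these, COX1, COX2 and COX3 encode subunits of cytochrome oxidase, ATP6 a subunit of ATP synthase, CYTB cytochrome b and ND4 a subunit of complex I. MBP, the basic protein that compacts the myelin sheath (chromosome 1, 147649516 to 147685289, Sscrofa11.1), was at 8455 ± 3414 CPM and took a place between 1 and 7 in the single libraries. The lipid carrier APOE and the astrocyte filament protein GFAP had nearly the same mean, 3721 ± 540.3 and 3693 ± 854 CPM, and their ranges overlapped. The next 20 named genes were mainly neuronal or ubiquitous. SNAP25, which fuses synaptic vesicles with the membrane, led them at 2584 ± 238 CPM. Chromogranin B (CHGB), a protein of dense-core vesicles, was at 1888 ± 209 CPM, and the neuronal membrane glycoprotein GPM6A at 1838 ± 135 CPM. The list also held actin and tubulin (ACTG1, TUBA1B), the elongation factors EEF2 and EEF1A2, the chaperone HSPA8, the axonal motor KIF1A and the tubulin-binding STMN2. It held as well the lysosomal PSAP, the secreted glia-derived CLU, the matrix proteoglycan SPOCK2, CBLN1 and the glycolytic enzyme PKM, beside ND2, ND3 and ND5. Among these 30 genes, MBP had the highest CV (40.4%), that of GFAP was 23.1%, and 23 genes were in the top 30 of every library.

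**Figure D1:**
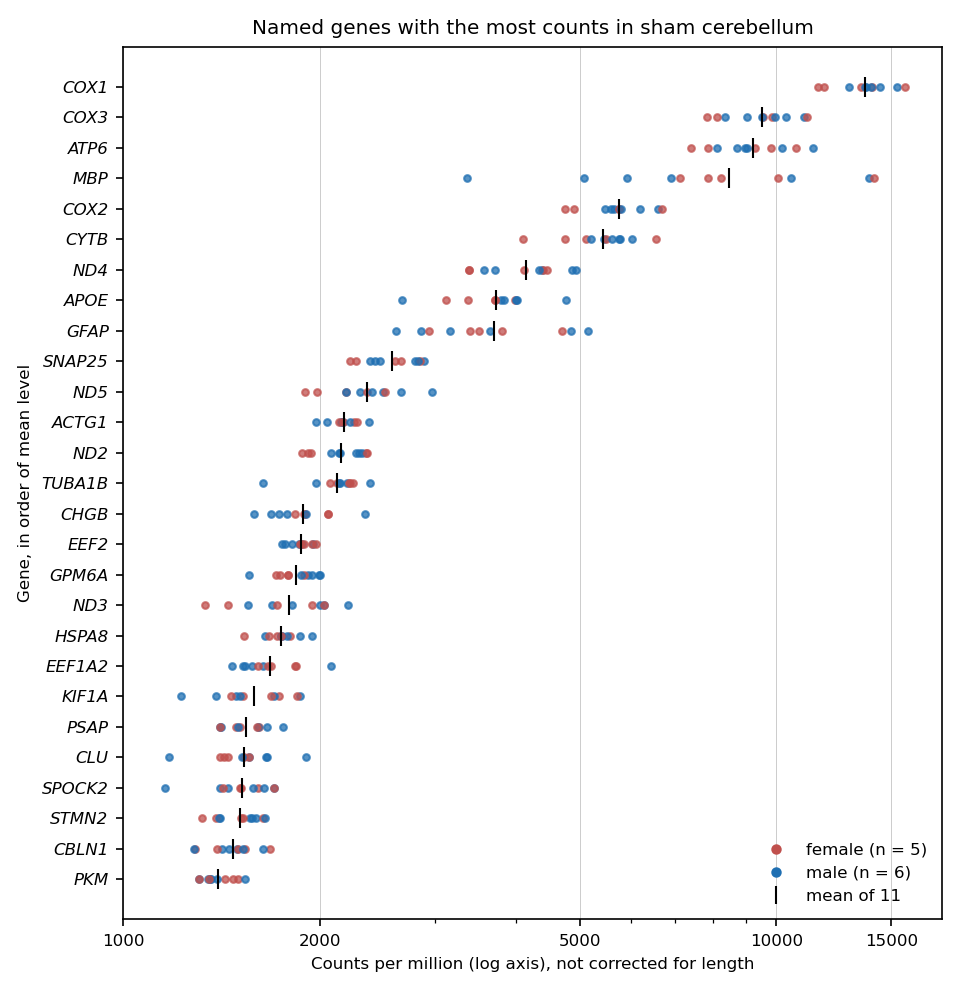
CPM (log axis) of genes among the 30 named ones with the highest mean, with 1 point per animal and the mean marked. The myelin gene MBP spread widest, from 3362 to 14090.0 CPM, while ACTG1 stayed between 1977 and 2381 CPM.

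Mitochondrial messenger RNAs come from a small circular genome, so their length is known and their levels can be compared per kilobase. The 13 protein-coding genes together held 5.63% ± 0.583 of the gene counts, between 4.69% and 6.47% in single animals. Per kilobase, ATP6 (mitochondrial positions 9120 to 9800) was first at 13551 ± 1798 CPM per kb. COX3 (9800 to 10583) followed at 12140.1 ± 1416 CPM per kb, COX1 at 8862 ± 821 and COX2 at 8336 ± 874. These 4 genes kept their places 1 to 4 in each of the 11 animals, although the ranges of ATP6 and COX3 across animals overlapped, as did those of COX1 and COX2. ND3 (5194 ± 795 CPM per kb) and CYTB (4765 ± 569) changed places between animals. The other complex I subunits had the lower places, with ND4 at 3005 ± 402, ND2 at 2068 ± 173 and ND4L at 715 ± 84.7 CPM per kb. ND6, ND5 and ND1 lay between 1293 and 1447 CPM per kb and exchanged places 9 to 11. ATP8, which encodes the other ATP synthase subunit of this genome, had 1 count over all libraries. It shares 43 bases with ATP6, and ND4L shares 7 with ND4. ND5, which ends at position 14755, and ND6, which starts at 14739, overlap as well. The sources used here state no rule for reads in such overlaps. Between 5.61% and 6.30% of the reads per library were set aside as fitting more than 1 gene. Whether reads of these mitochondrial genes are among them was not tested. The summed level of nuclear genes of the respiratory chain was 6285 ± 535 CPM over 37 genes, led by ATP5F1A (831 ± 55.7 CPM), the alpha subunit of ATP synthase, NDUFA4 (393 ± 52.1 CPM) and ATP5F1D (324 ± 30.2 CPM).

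Cell type programs were followed with 15 lists of marker genes, 269 genes in all, which together held 5.32% ± 0.676 of the gene counts. Summed over their members, the myelin list came first (17161 ± 5966 CPM), followed by astrocytes and Bergmann glia (14039.8 ± 1492 CPM), granule neurons (10805 ± 813 CPM) and Purkinje cells (4955 ± 438 CPM). Interneurons (1820.3 ± 118 CPM), oligodendrocyte precursors (1286 ± 204 CPM) and granule cell precursors (977 ± 79.97 CPM) came next. Vascular, immune, meningeal and blood lists were all below 1000 CPM. The order is that of the chosen genes and their reads, and does not give the proportions of cells. The ranges of the first places overlapped. The myelin list ran from 8246 to 27567 CPM, and was under the astrocyte sum in animals 1, 4 and 10 and under the granule neuron sum in animal 1. Its first place rested on MBP, which held 49.3% of the sum. Without the leading member of each list, the means were 10319 CPM for astrocytes, 9333 CPM for granule neurons and 8707 CPM for myelin.

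**Figure D2:**
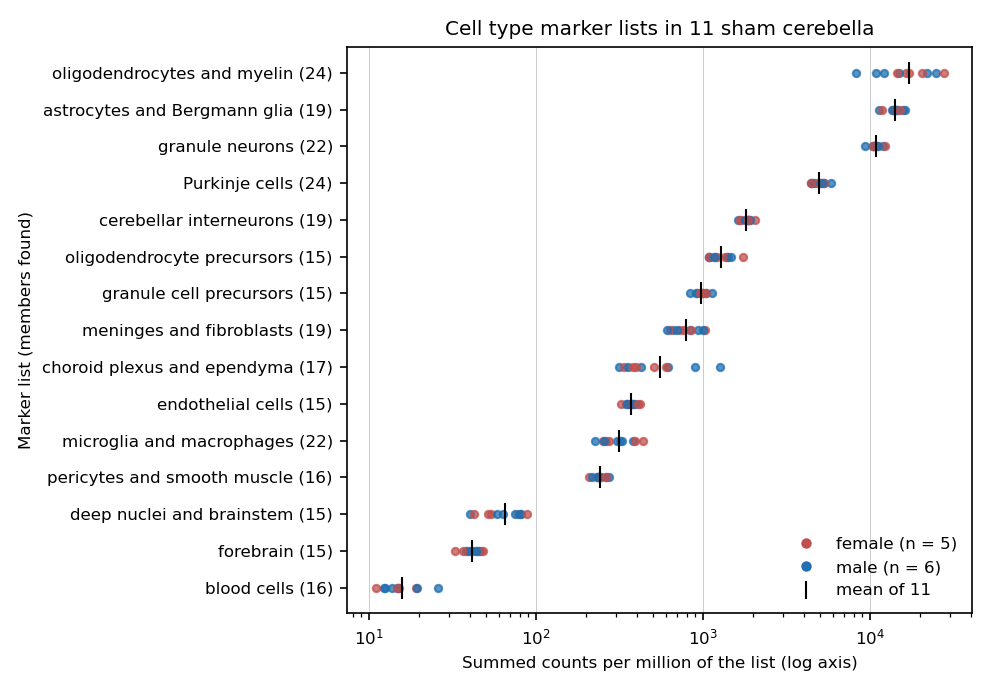
Summed CPM (log axis) of the 15 cell type lists, with 1 point per animal and the mean marked. The myelin, astrocyte, granule neuron and Purkinje cell lists have the highest means, and the choroid plexus and myelin lists spread widest, with CVs of 52.2% and 34.8%.

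Granule neuron genes were among the steadiest of the cell type programs. All 22 members were found, and their sum had a CV of 7.53%. After CBLN1, its paralogue CBLN3 was at 881 ± 62.4 CPM, NEUROD1 at 786 ± 79.2 and RELN, the secreted protein that guides neuronal layering, at 733 ± 113 CPM. The vesicular glutamate transporter SLC17A7 stood at 637 ± 79.6 CPM and GABRD, the receptor subunit of tonic inhibition in granule cells, at 326 ± 25.2 CPM. CALB2, which encodes calretinin, was lowest of the list at 47.5 ± 9.56 CPM. The sum was lowest in animal 4 (9289 CPM), where 15 of the 22 members had their lowest value, and highest in animal 6 (12333 CPM).

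Genes of dividing granule cell precursors were detected at low levels. ATOH1, the transcription factor that defines the precursor, was at 3.85 ± 1.54 CPM, with a lowest value of 2.29, a median of 3.65 and a highest of 7.76 CPM in animal 4. PTCH1, the Sonic hedgehog receptor, was at 94.6 ± 14.00 CPM, its targets GLI1 and MYCN at 6.11 ± 1.14 and 20.2 ± 3.18 CPM, and CCND2, a cyclin of precursors, at 35.1 ± 4.81 CPM. Of this list, 55.7% of the reads fell on CNTN2 (544 ± 57.3 CPM), an adhesion molecule of young granule cells that mature neurons also carry. Without it the sum was 433 ± 39.8 CPM. The cell cycle list summed to 369 ± 47.4 CPM over 19 genes, led by the replication helicase subunits MCM6 (113 ± 13.4 CPM) and MCM7 (49.8 ± 6.50 CPM) and by TOP2A (36.3 ± 10.1 CPM). The mitotic genes CDK1 and CCNB1 were at 5.03 ± 1.64 and 4.82 ± 1.07 CPM. Animal 4 had the highest cell cycle sum (458 CPM) and the highest value of 11 of its 18 detected members. Animal 9 had the lowest (284 CPM). No identifier matched the proliferation marker MKI67.

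Purkinje cell genes were led by ITPR1, the inositol trisphosphate receptor that releases calcium in their dendrites, at 1159 ± 213 CPM. DNER, a transmembrane protein of Purkinje dendrites, was at 587 ± 38.97 CPM, PCP4 at 464 ± 56.5, and CA8, which binds ITPR1, at 381 ± 31.5 CPM. Transcription factors had few reads, with LHX1 at 34.1 ± 4.14, RORA at 28.8 ± 7.46, FOXP2 at 10.6 ± 2.70 and SKOR2 at 4.62 ± 1.09 CPM. PLCB4, a phospholipase of Purkinje cell signalling, had the smallest CV of the list (3.58%). The sum was highest in animal 1 (5838 CPM) and lowest in animal 11 (4452 CPM). Of the 24 members, 9 were highest in animal 1 and 3 lowest in animal 11. The leading gene ITPR1 held 23.4% of the sum. PCP2 was lowest in animal 1 (305 CPM) and highest in animal 4 (420 CPM).

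Inhibitory interneurons were represented by the calcium buffer PVALB (306 ± 45.4 CPM), which Purkinje cells also carry, and the GABA-synthesising enzymes GAD1 (269.8 ± 24.5 CPM) and GAD2 (154 ± 15.1 CPM). KIT, the receptor of molecular layer interneurons, was at 220.4 ± 27.9 CPM and PAX2, of their immature forms, at 9.87 ± 1.52 CPM. The glycine transporter of Golgi cells, SLC6A5, was at 4.34 ± 0.954 CPM. EOMES, which marks the excitatory unipolar brush cells, was at 82.6 ± 18.00 CPM. The list had the smallest CV of the 15 cell type sums, 6.47%.

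Most oligodendrocyte genes had their highest value in the same animal and their lowest in another. MBP was lowest in animal 1 at 3362 CPM, had a median of 7851 and was highest in animal 11 at 14090.0 CPM. Other members of the list were the tight junction protein CLDN11 (423 ± 106 CPM), transferrin TF (369 ± 158 CPM), the adhesion molecule MAG (358 ± 114 CPM) and the enzyme CNP (349.6 ± 106 CPM). All 24 members found had a CV above the median of 12.7% over all genes at 1 CPM or more, and their median CV was 29.6%. Of the 24, 16 were highest in animal 11 and 19 lowest in animal 1. Without MBP the sum still had a CV of 30.3%. Late myelin genes MOG and OPALIN, at 65.6 ± 16.6 and 155 ± 41.03 CPM, were present in every animal. The precursor list varied less, with a CV of 15.9%. Its leading gene BCAS1, of newly forming oligodendrocytes, was at 338 ± 98.3 CPM, GPR17 of the same stage at 93.4 ± 17.01, and PDGFRA, the growth factor receptor of precursors, at 25.6 ± 2.96 CPM. Cholesterol, a main lipid of myelin, is made locally in the brain. The synthesis genes summed to 2322 ± 342 CPM over 19 genes, with HMGCS1 at 682 ± 116 CPM and MSMO1 at 202 ± 33.3 CPM. This sum was lowest in animal 1 and highest in animal 11, as the myelin sum was, with 14 of the 18 detected members lowest and 11 highest in those animals.

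Astrocyte genes included the structural GFAP, the lipid carriers APOE and CLU (1530.4 ± 182 CPM) and the transporters that clear the synapse. SLC1A3, the glutamate transporter typical of Bergmann glia, was at 1006 ± 76.3 CPM with a CV of 7.59%, and SLC1A2, the other glial glutamate transporter, was at 86.7 ± 20.8 CPM. The water channel AQP4 was at 902 ± 115 CPM, the fatty acid binding protein FABP7 of radial and Bergmann glia at 439 ± 45.3 CPM, and the gap junction protein GJA1 at 225 ± 18.8 CPM. GDF10, a marker of Bergmann glia, was at 52.1 ± 9.39 CPM. GFAP varied most among the abundant members. It was lowest in animal 1 (2618 CPM), had a median of 3508 and was highest in animal 9 (5151 CPM). The sum over the list had a CV of 10.6%.

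Microglial, vascular and meningeal genes were present at low levels. The microglial list summed to 313 ± 67.5 CPM and was led by the growth factor receptor CSF1R (49.5 ± 10.6 CPM), LAPTM5 (35.5 ± 7.72 CPM) and the complement gene C1QB (35.5 ± 12.1 CPM). CX3CR1, the fractalkine receptor, was at 15.1 ± 3.80 CPM. The border macrophage genes MRC1, CD163 and LYVE1 were under 2 CPM each. Animal 2 had the highest value of 11 of the 21 microglial genes with a mean of at least 1 CPM and animal 1 the lowest of 10. The endothelial tight junction gene CLDN5 was at 76.1 ± 10.2 CPM. The endothelial list summed to 371 ± 27.99 CPM with a CV of 7.54%, while the median CV of its members at 1 CPM or more was 15.5%. Pericyte genes were led by RGS5 (79.4 ± 10.8 CPM) and PDGFRB (34.2 ± 4.50 CPM). Among meningeal and fibroblast genes, CEMIP, a hyaluronan-degrading protein, was at 148 ± 18.8 CPM, and the collagens COL1A1 and COL1A2 were at 132 ± 42.2 and 118 ± 38.1 CPM. COL1A2 was lowest in animal 1 (76.2 CPM) with a median of 115 and a highest value of 170.0 CPM in animal 3. Blood genes were close to 0: the 16 found summed to 15.7 ± 4.21 CPM, with beta globin (HBB) at 0.675 to 11.05 CPM and a median of 2.47. The liver product ALB was at 4.02 ± 0.835 CPM.

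Genes of the cytoskeleton and of synaptic vesicles were abundant, and their summed levels were steady. The cytoskeleton list held 24605 ± 704 CPM over 35 genes, and its sum had a CV of 2.86%. The synaptic vesicle list held 15049 ± 636 CPM over 33 genes, and its sum had a CV of 4.23%. Single members with a mean of at least 1 CPM varied more, with median CVs of 9.90% and 10.4%. After SNAP25, the fusion clamp CPLX2 (1296 ± 132 CPM) and the vesicle protein SYP (993 ± 56.1 CPM) led the synaptic vesicle list. Ion pumps and chloride carriers summed to 9174 ± 684 CPM. SLC12A5, the exporter that makes GABA inhibitory in mature neurons, was at 647 ± 84.6 CPM, and SLC12A2, the chloride importer of immature neurons and other cells, at 93.7 ± 9.33 CPM. Across animals SLC12A5 ran from 484 to 797 CPM and SLC12A2 from 78.4 to 107 CPM.

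Receptor subunits of the same family differed widely in their counts. Of the NMDA receptor subunits, GRIN2C, which mature granule cells carry, was at 189.6 ± 33.8 CPM, GRIN2A at 20.5 ± 5.33 CPM and GRIN2B, the subunit of immature neurons, at 1.59 ± 0.477 CPM. Across animals GRIN2C ran from 126 to 242, GRIN2A from 12.5 to 32.6 and GRIN2B from 0.721 to 2.50 CPM. GRIN1, the subunit that every NMDA receptor needs, was listed at 0 in all libraries. AMPA receptor subunits were led by GRIA2 (329 ± 38.05 CPM), which blocks calcium entry, GRIA1 (256 ± 17.6 CPM), and GRIA4 (202 ± 7.97 CPM). Of the GABA-A receptor subunits beside GABRA6 and GABRD, GABRB2 was at 213 ± 25.3 CPM. GABRA5 was at 0.251 ± 0.165 CPM. The 2 receptor lists had CVs of 6.24% and 5.64%.

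Genes of protein synthesis and energy supply made up a further large share. Of 77 listed ribosomal protein genes, 45 were found by symbol, and these summed to 18930.1 ± 2733 CPM, led by RPS2 (1001 ± 171 CPM), RPLP1 (915 ± 149 CPM) and RPL6 (749 ± 99.01 CPM). The sum was highest in animal 4 (24997 CPM), which had the highest value of 40 of the 44 members with a mean of at least 1 CPM, and lowest in animal 1 (14987 CPM). The translation factors, led by EEF2 (1871 ± 71.3 CPM) and EEF1A2 (1678 ± 178 CPM), summed to 7649 ± 141 CPM. This sum had the smallest CV of the 32 list sums, 1.85%, while the median CV of the single members was 8.27%. Glycolytic genes summed to 5591 ± 280.4 CPM, with PKM at 1397 ± 76.7, the neuronal enolase ENO2 at 1215 ± 85.9 and ENO1 at 593 ± 47.4 CPM. Chaperones summed to 4621 ± 218 CPM, of which HSPA8 held 1745 ± 110.0 CPM. Some genes that are active in nearly every cell were listed at or near 0 under their matched identifier. GAPDH was at 0.136 ± 0.131 CPM and ALDOA at 0.146 ± 0.13 CPM, and HSP90AA1 and CKB had 0 counts in every library. Of the 636 listed genes that were found, 12 had 0 counts throughout. A value at or near 0 for a single gene is therefore given as what is listed, and was not read as absence of the transcript.

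Spread between animals was modest for most genes. Over the 14172 genes with a mean of at least 1 CPM the median CV was 12.7%, beside a median of 4.59% that counting alone would give. The median CV was 24.4% for genes at 1 to 10 CPM, 10.9% at 10 to 100, 9.02% at 100 to 1000 and 9.66% above that. Counting error made up more than 50% of the variance in 9.34% of the genes, most of them low. A CV above 50% was found for 265 genes. The common biological coefficient of variation estimated by edgeR was 15.77%, and 14.98% when sex was in the model.

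**Figure D3:**
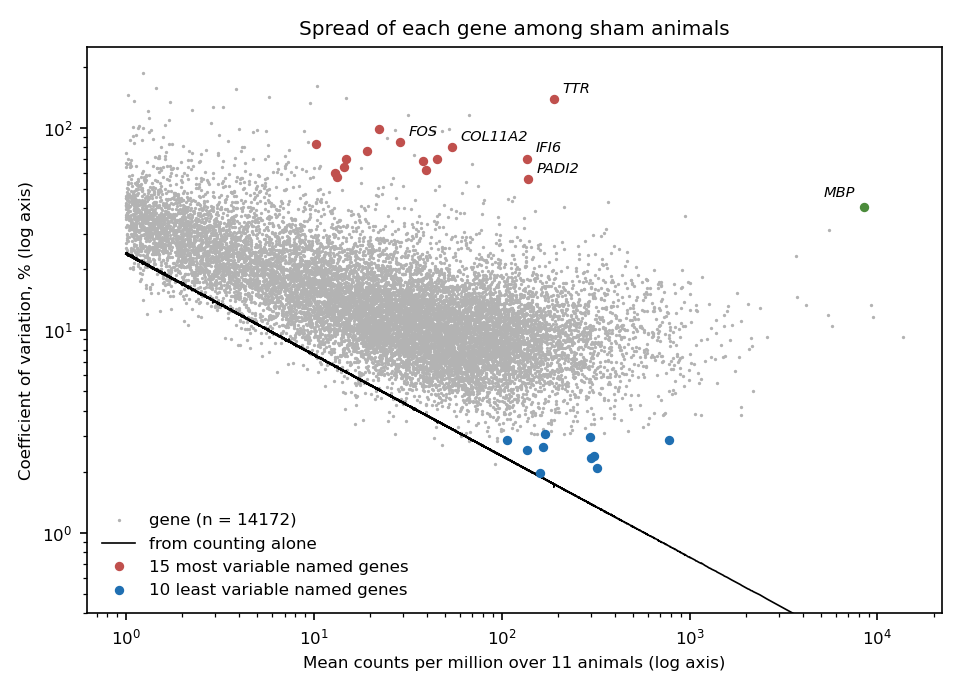
CV over the 11 animals against mean CPM (both log axes), 1 point per gene with a mean of at least 1 CPM, with named genes marked and the spread that counting alone gives drawn as a line. Among the marked genes, TTR stands highest at a CV of 139% and CAP1 lowest at 1.97%.

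Among genes with a mean of at least 100 CPM, some varied little more than counting alone would give. CAP1, which recycles actin, had the smallest CV of the named genes. It was at 159 ± 3.13 CPM with a CV of 1.97%, next to a counting CV of 1.90%. VCP, an ATPase that extracts proteins for degradation, ACTR1A, of the dynactin complex, and SCAMP5, of secretory vesicles, had CVs of 2.10%, 2.34% and 2.39%. IVD, an enzyme of leucine breakdown, the RNA-binding FXR2, the ubiquitin-conjugating enzyme UBE2R2, the adaptor CRK, the chaperonin subunit CCT3 and POLDIP3 completed the 10, all with CVs of at most 3.08%. Each of these 10 genes differed by at most 1.12-fold between its highest and lowest animal.

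TTR, which encodes the thyroid hormone carrier transthyretin made by choroid plexus epithelium, was the most variable named gene with a mean of at least 10 CPM (chromosome 6, 115496338 to 115503974). It was at 1.69 CPM in animal 1, 2.52 in animal 2 and 11.8 in animal 11. Values of 57.3, 61.4, 71.8 and 116 CPM were found in animals 4, 6, 3 and 7. Animals 5, 8, 9 and 10 had 188, 241, 469.8 and 866 CPM. The highest was 513 times the lowest. Of the 12 members of the choroid plexus list with a mean of at least 1 CPM, 5 were highest in animal 10, TTR included. Also highest there were the channels KCNJ13 (2.30 to 17.8 CPM), CLIC6 (0.0675 to 11.6) and, with a mean under 1 CPM, AQP1 (0.117 to 3.14). The transporter SLC4A5 was at 4.29 CPM in animal 10, under its median of 17.8 CPM. The summed list, of which 17 genes were found, had a CV of 52.2%, and of 12.3% without TTR. Its single members varied more than the sum without TTR. The median CV of the 12 members with a mean of at least 1 CPM was 38.0%. Of these 12, 11 had a CV above the median of 12.7% over all genes at 1 CPM or more, and 8 were lowest in animal 1. OTX2, a regulator of choroid plexus that granule cells of the posterior lobes also carry, and TRPM3 were steadier, with CVs of 9.62% and 12.7%. The sources used here do not say how much choroid plexus each sample held, and its part in these values was not tested.

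Genes that neurons and other cells switch on within minutes of a stimulus formed a further variable group. FOS was lowest in animal 8 at 4.67 CPM, had a median of 23.8 and was highest in animal 9 at 88.5 CPM. NR4A1, a nuclear receptor of the same response, was likewise lowest in animal 8 (13.8 CPM) and highest in animal 9 (104 CPM), with a median of 31.03. The list summed to 334 ± 129.9 CPM over 17 genes, led by NR4A2 (79.6 ± 33.99 CPM) and IER2 (62.9 ± 10.5 CPM). Of its 15 members with a mean of at least 1 CPM, 10 were highest in animal 9 and 10 lowest in animal 8.

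Interferon-induced genes varied in the same range, with a summed level of 660.4 ± 243 CPM and a CV of 36.8%. Animals 2, 4, 9 and 11 had sums of 909.7, 1015, 934 and 936 CPM, above the other 7, which ran from 402 in animal 3 to 669 CPM in animal 7. IFI6 ranged from 40.9 to 326 CPM around a median of 109, with its highest value in animal 4. Without IFI6 the highest sum of the list was 756 CPM and was not in animal 4. Of the 23 members with a mean of at least 1 CPM, 4 were highest in animal 4. The antiviral GTPases MX1 and MX2 ranged from 41.6 to 105 and from 4.36 to 34.04 CPM. GBP1, a GTPase induced by interferon gamma, was at 54.2, 35.8 and 31.8 CPM in animals 11, 2 and 4 and at most 17.7 CPM in the others. The antigen presentation list, led by CD74 (410.4 ± 62.01 CPM), was highest in animal 4 (698 CPM). No infection status is given in the labels.

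The other named genes among the 15 most variable had different high animals. COL11A2, a minor fibrillar collagen, was at 151 CPM in animal 6 and 133 in animal 9 and between 26.6 and 40.9 CPM in the other 9. SLC4A5, a bicarbonate transporter of choroid plexus, had values of 2.27 to 4.29 CPM in animals 3, 6, 8 and 10 and of 17.4 to 24.3 CPM in the other 7. KLK6, a protease of myelinating oligodendrocytes, was lowest in animal 1 (2.09 CPM) and highest in animal 9 (31.6 CPM). CPXM2, of the carboxypeptidase family, reached 104 CPM in animal 2 beside a median of 30.3. PADI2, which converts arginine to citrulline in myelin proteins, reached 326 CPM in animal 5 beside a median of 104. CRABP1, which binds retinoic acid, and MFRP, a frizzled-related membrane protein, were both highest in animal 10, at 118 and 30.7 CPM, and lowest in animal 1. FAM163B was lowest in animals 3 and 7, at 1.56 and 2.58 CPM, beside a median of 12.8. EIF1AY, the remaining one, differed by sex. A further 18 identifiers with no symbol were as variable as these genes.

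High and low values were not shared evenly among the animals. Each of the 11 would hold the highest value of 9.09% of the 14172 genes if shares were equal. Animal 1 was highest for 19.03% and lowest for 16.3%, and animal 4 for 17.6% and 14.3%. Animal 9 was lowest for 15.6%. Animal 1 had the lowest sums for myelin, astrocyte, ribosomal and cholesterol genes and the highest for Purkinje cells, synaptic vesicles and the circadian clock. Of the 24 Purkinje cell members, 9 were highest in animal 1. The clock genes, led by TEF (215 ± 34.3 CPM), HLF (191 ± 25.4 CPM) and NR1D2 (152 ± 23.5 CPM), summed to 1835 CPM in animal 1 and to at most 1431 CPM in the other 10. Animal 4 had the highest ribosomal, interferon and cell cycle sums and the lowest granule neuron and synaptic vesicle sums. Its first place for interferon genes rested on IFI6. Animal 1 also had the shallowest library and the most reads outside annotated genes, and the part of these in these values was not tested. Principal components of log2 CPM spread the variance over several axes, with 22.04%, 17.9%, 12.7% and 11.5% on the first 4.

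**Figure D4:**
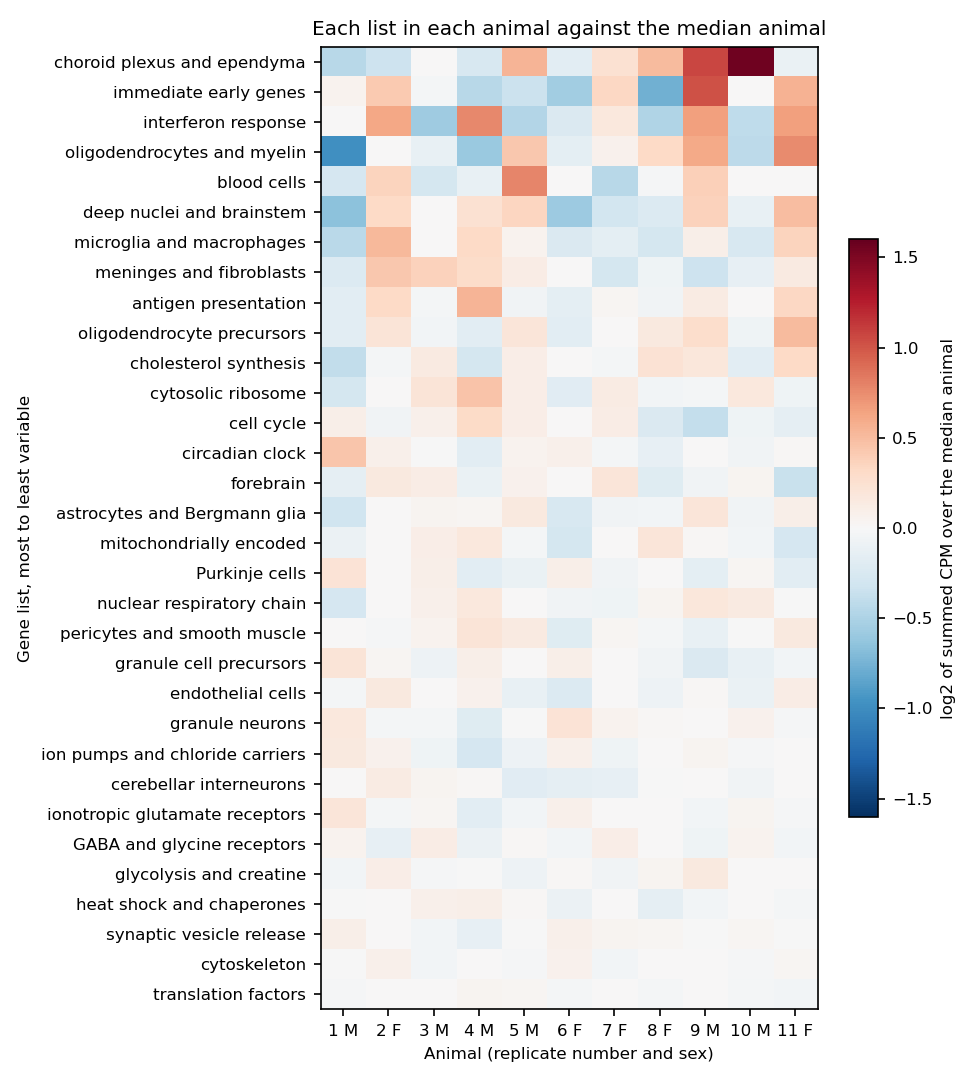
Summed level of each of the 32 lists in each animal, as log2 of its ratio to the median animal of that list (colour). The myelin row runs from -0.98 in animal 1 to 0.76 in animal 11, and the choroid plexus row reaches 1.56 in animal 10.

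Whether programs varied together was tested with 1 anchor gene for each of 8 programs, over all 28 pairs and 11 animals, on log2(CPM + 0.5). MBP and GFAP were correlated, with a Pearson r of 0.89 (permutation p = 0.00023, adjusted p = 0.00644 over 28 pairs, 2-sided) and a Spearman rho of 0.86 (permutation p = 0.00122, adjusted p = 0.0342). Without animals 1 and 11, the 2 farthest from the median of MBP, r was 0.86, and within the 6 males it was 0.98. CALB1 and MX1 were inversely correlated by Pearson's r (-0.82, permutation p = 0.00131, adjusted p = 0.0183). By Spearman's rho this pair did not pass (-0.76, permutation p = 0.00858, adjusted p = 0.12). Its r was -0.73 without animals 3 and 11 and -0.86 within the males. Leaving out animal 2, 3, 9 or 11 took its adjusted p to between 0.0525 and 0.175. The other 26 pairs did not pass. The nearest were GABRA6 and COL1A2 (r = -0.66, permutation p = 0.0308) and FOS and MX1 (r = 0.66, permutation p = 0.0313). CALB1 and MBP followed (r = -0.64, permutation p = 0.0335), and all of these had an adjusted p of 0.188. Weaker pairs included MBP and TTR (r = 0.34, permutation p = 0.306, adjusted p = 0.634, and rho = 0.25, adjusted p = 0.694). GABRA6 and MBP were also weaker (r = -0.29, permutation p = 0.389, adjusted p = 0.64, and rho = -0.27, adjusted p = 0.694). The 5 females were too few for a value of their own. All levels are shares of 1 total per library, so a large change in some genes moves the CPM of the others.

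**Figure D5:**
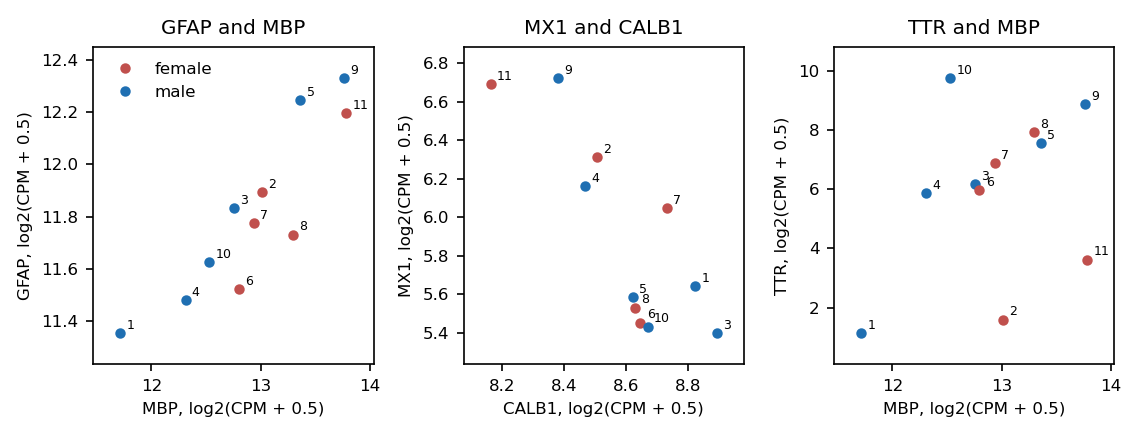
Log2(CPM + 0.5) of 3 pairs of anchor genes, with 1 numbered point per animal and colour for sex. Animals with more MBP counts had more GFAP counts (r = 0.89), MX1 and CALB1 run in opposite directions (r = -0.82), and TTR and MBP show a wide scatter (r = 0.34).

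Sex is the one labelled split within the group, and few genes were called between the sexes. Of 15130 genes tested by edgeR's quasi-likelihood test with Benjamini-Hochberg adjustment, 19 (0.126%) had an adjusted p under 0.05, 5 higher (0.033%) and 14 lower (0.0925%) in females. Only 2 of the 19 had a symbol, both Y-linked and lower in females. EIF1AY, a translation initiation factor, was at 0.0336 ± 0.0517 CPM in the 5 females and 40.99 ± 7.52 in the 6 males (adjusted p = 6.21e-12). KDM5D, a histone demethylase, was at 0.0235 ± 0.0525 CPM in the 5 females and 16.3 ± 1.03 in the 6 males (adjusted p = 2.18e-11). No female had more than 2 counts of either gene, and every male had at least 239, so the recorded sex and these genes went together in all 11 animals. Over the 14 genes lower in females, the highest count in any female was 12 and the lowest in any male 12. Of the 5 genes higher in females, 2 had at most 1 count in every male and at least 1073 in every female. Neither has a symbol. KDM6A, an X-linked histone demethylase, was at 60.7 ± 7.58 CPM in the 5 females and 44.4 ± 3.69 in the 6 males (log2 difference 0.44 ± 0.09, SE). It was higher than the male mean in 5 of 5 females but did not pass (adjusted p = 0.0927, edgeR), and with no filter on low counts its adjusted p was 0.03. The neighbouring results by p were TNFAIP6 (adjusted p = 0.0735), with a hyaluronan-binding product, at 0.438 CPM in females and 2.21 in males, and RNF144A (adjusted p = 0.291). With no filter on low counts the adjusted p of TNFAIP6 was 0.0258 (edgeR). No member of the 32 lists was called, beside 0.126% of all genes tested. Some lists leaned to 1 side, beside 48.2% of all genes higher in females. Lower in females were 43 of 45 ribosomal, 34 of 37 nuclear respiratory chain and 12 of 12 mitochondrial genes tested. Higher in females were 17 of 18 cholesterol synthesis, 21 of 24 myelin and 20 of 23 interferon genes. Members of a list can share the same extreme animals, so they are not independent, and these directions were not tested. Of all genes tested, 7292 were higher and 7838 lower in females, and 665 had an unadjusted p under 0.05. With 1 animal left out that number ran from 443 (without animal 3) to 1677 (without animal 1), and was 1209 without animal 9 and 1038 without animal 7. The values of the 2 sexes did not overlap for 29 genes higher (0.192%) and 33 genes lower (0.218%) in females. In groups of 5 and 6 animals such separation also arises by chance, and these counts were not tested against it. Depth and number limit what this comparison could see: in simulated data of this size the test recovered 58.2% of genes changed 1.5-fold and 88.1% of those changed 2-fold.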

How the data were processed

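RNA of 11 sham-operated piglet cerebella was read in pairs of 150 bp (Illumina NovaSeq, per the labels' protocols). The authors deposited raw read counts for each Ensembl gene, in a separate table for every animal. The submitters' processing notes name Trim Galore, HISAT2, HTSeq, DESeq2 and the build Sscrofa11.1. The sources used here state no versions, no strand setting and no rule for reads that fit several genes. In the deposited tables, 5.61% to 6.30% of the reads per library were set aside as fitting more than 1 gene. A further 4.06% to 4.37% were set aside as placed more than once. Without strand, the reads of overlapping genes on opposite strands would be mixed. Reads of near-identical copies may be missing, which bears on the ribosomal protein, tubulin, actin and major histocompatibility genes, which have close copies.

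The 5 rows that name no gene held 29.9% to 33.5% of the reads and were removed. Of 31907 identifiers, 15029 had a symbol in the reference name table. Positions were looked up by symbol in RefSeq genes on Sscrofa11.1. Counts were divided by each library's total of 14811464 to 20046909 gene counts and given as CPM, of which a count of 3 makes up 0.15 to 0.203. Only mitochondrial genes were also divided by length, the span in the annotation.

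Of 760 listed genes in 32 lists, 636 were found. The members, lists and tests were chosen with earlier results of these data known. The text names the 30 genes with a symbol and the highest mean CPM, the 3 leading and the defining members of the lists, the 15 most variable genes (mean of at least 10 CPM), the 10 least variable (at least 100 CPM), the genes with the smallest p between the sexes, and genes named whatever their value. Genes named beyond that were chosen after their values were seen: further list members shown as examples, and GAPDH, ALDOA, HSP90AA1, CKB and GRIN1, shown for being at or near 0. Some genes that the rule names are left out of the text and are not reported here.

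Females and males were compared with edgeR 4.0.16 (R 4.3.3): TMM scaling, filterByExpr (at least 10 counts, 15 in total), a robust quasi-likelihood fit on sex, and Benjamini-Hochberg adjustment over 15130 genes at 0.05. The test was checked on simulated counts, drawn independently for each gene, with 200 changed genes. There it made 159 calls, 1 of them false. Correlations used 100000 permutations (scipy 1.17.1). DESeq2 1.42.0, limma 3.58.1, other scalings and filters, other pseudocounts and leaving out each animal were the alternatives.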

Additional observations from a re-analysis of the deposited data

Results flagged for a closer look

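Within the females and within the males, 1 animal stood far from the rest of its sex in 4 of 64 comparisons of a list's summed level, where chance gives about 1 in 20, or 3.2. All 4 were a highest value among the 6 males. Immediate early genes summed to 625.1 CPM in animal 9, beside 321 CPM in the next male. Glycolysis and creatine genes summed to 6198 CPM in animal 9 as well, beside 5545. Circadian clock genes summed to 1835 CPM in animal 1, beside 1406. Antigen presentation genes summed to 698 CPM in animal 4, beside 525.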

How the results depend on the processing

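Without the mitochondrially encoded genes the top 100 genes held 13.7% of the counts. Without the leading member of each list, the cell type lists together summed to 44769.8 CPM, and the sums of 27 single lists moved by more than their SD, a step that removes reads by construction. With mitochondrial genes out of the denominator, the sums of 6 lists did. The median CV was 16.2% over genes with a mean of at least 0.1 CPM and 10.4% over those with at least 10. With DESeq2, 28 genes differed between the sexes, of which 9 were higher in females. Other scalings, limma-voom and no filter on low counts gave 19 to 25. Leaving out 1 animal at a time gave 17.6 to 17.9% for the top 100 share, 52114 to 54236 CPM for the cell type lists, 11.99 to 12.97% for the median CV, 18 to 22 genes between the sexes (4 to 7 higher and 14 to 17 lower in females), and 1 to 2 passing anchor pairs. The pair lost was CALB1 and MX1, without animal 2, 3, 9 or 11, an alternative chosen after the data were seen. The 19 genes called between the sexes were all called again in every setting, except for 1 gene each without animals 6, 7 and 8. Levels per kilobase over all genes were not run, since the tables used here give no exon lengths. No paired analysis was possible because the labels give no replicate numbers and the animals of 1 group form no pairs. Depth limits the genes at 1 to 10 CPM most, where counting alone gave a median CV of 12.9%.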

Other observations

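Genes of the oligodendrocyte lineage differed in their spread. PDGFRA, of dividing precursors, had a CV of 11.5%. GPR17 and BCAS1, of newly forming oligodendrocytes, had CVs of 18.2% and 29.1%. Among genes of mature myelin, MOG, OPALIN and CLDN11 had CVs of 25.4%, 26.4% and 25.2%, below that of BCAS1, and MBP had 40.4%. SOX10 and OLIG1, regulators present through the lineage, had CVs of 31.4% and 25.9%. PDGFRA is also carried by meningeal fibroblasts.

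Of the 19 listed antigen presentation genes, 10 were found by symbol. These had low levels apart from CD74, the chaperone of class II molecules, and the others have no value here. TAP1 and TAP2, which transport peptides for class I molecules, were at 21.3 ± 6.93 and 17.6 ± 5.26 CPM, and CIITA, the class II regulator, at 24.04 ± 2.38 CPM. TAP1 ran from 13.7 to 33.9 CPM. Among stress chaperones, the inducible co-chaperone DNAJB1 was at 102 ± 7.71 CPM and BAG3 at 12.99 ± 1.69 CPM, with CVs of 7.54% and 12.97%. The clock repressor NR1D1 was at 21.6 to 75.2 CPM and PER1 at 82.6 to 187 CPM, while CLOCK itself had a CV of 8.06%.

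Genes listed at 0 in every library included several that most cells or most neurons are known to use: HSP90AA1, a cytosolic chaperone, DYNC1H1, the heavy chain of the dynein motor, TUBB4B, a tubulin, CKB, a creatine kinase, GRIN1, MCM5, a replication helicase subunit, and LSS, of cholesterol synthesis. These genes were chosen after their values were seen. Their relatives in the same complexes had counts, such as MCM6 at 113 ± 13.4 CPM and HSP90AB1 at 429 ± 44.8 CPM. Between 5.61% and 6.30% of the reads per library were set aside as fitting more than 1 gene, and 4.06% to 4.37% as placed more than once. Whether reads of these genes are among them was not tested.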
